A study of Mus musculus with 16 samples.

Results

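Expression of 10 genes of cholesterol efflux and sterol transport was examined in bulk RNA-seq of 16 MC38 tumors. The genes were taken from a list of LXR receptors, efflux pumps and sterol transport genes and were matched by symbol to the 53465 genes of the count table. All 10 were found and all 10 passed the filter on low counts, together with 18251 tested genes in all. They are the receptors Nr1h3 and Nr1h2, the pumps Abca1 and Abcg1, the apolipoprotein Apoe, the HDL receptor Scarb1, the lysosomal exit proteins Npc1 and Npc2, the ester-forming enzyme Soat1 and the sterol transfer protein Osbp. The list was not chosen from measured values, although it was drawn up when earlier results of these tumors were known.

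MC38 is a mouse colon carcinoma line. Female C57BL/6 mice aged 6 to 8 weeks carried tumors from 1000000 cells placed under the skin of the right flank, and entered the study with tumors of 150 to 250 mm3 on day 16. They received 200 µg of control IgG (n = 8) or of an antibody against PD-1 (aPD-1, n = 8) on days 16 and 20, and the tumors were taken on day 21. The study divided the aPD-1 tumors by CD8 T cell staining into 6 non-responders (NR) and 2 responders (R), so T cell genes were part of the choice of responders. RNA came from sections of a frozen piece of each tumor, and holds tumor cells and every host cell type in the section.

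Cells take in cholesterol from lipoproteins, release it from the lysosome through NPC2 and NPC1, and store the excess as esters made by SOAT1. Oxysterols, which are oxidized forms of cholesterol, activate the liver X receptors LXRα (Nr1h3) and LXRβ (Nr1h2), which pair with RXR on DNA and switch on the pumps ABCA1 and ABCG1 and the carrier apolipoprotein E. LXRα is typical of macrophages, fat and liver, while LXRβ is made in most tissues.

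Total counts were 26603477 to 39948874 per tumor. Mitochondrially encoded genes took 7.60% of the counts in IgG replicate 1, 6.00% in NR replicate 9 and 5.73% in NR replicate 14, against 2.52% to 3.25% in the other 13 tumors. Those 3 tumors stood apart, and differences between groups that change much without them are given beside the results. Mean shares of the LXRs, correlations and the genes most like each other were not computed without them. Of the colon epithelium markers, Cdx2 was at 0 in all NR and R tumors, and Epcam was at 0.0608 to 0.942 counts per 1000000 (CPM) in the IgG and NR tumors and at 5.32 to 10.6 CPM in the responders. Krt8 and Krt18 were at most 1.80 CPM outside the responders and at least 11.3 CPM in them, and Cdh1 was at 3.75 to 8.12 CPM in IgG and NR tumors. Krt20 was at most 0.366 CPM outside the responders and at 0.709 and 0.197 CPM in R replicates 15 and 16. Vil1 was at most 0.283 CPM outside the responders and at most 0.141 CPM in them. The markers of this list were thus near 0 outside the responders, apart from Cdh1. In the responders Epcam, Krt8 and Krt18 were higher, while Cdx2, Vil1 and Krt20 stayed near 0.

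Promoter sequences from RefSeq (GRCm38.p6, 250 bases before to 50 after a start site) were examined for 7 of the 10 genes, in 10 promoters. Abcg1, Npc1 and Scarb1 were not among them. The promoter of Abca1 is shown because its gene is a classical LXR target and its level differed between the groups, and a promoter of Nr1h3 because the receptor differed with it. In the Abca1 promoter (chr4:53159846-53160145, minus strand, written 5′ to 3′ in the direction of the gene) the first capitals mark the E-box CACGTG and the second the match to the LXR motif.
Abca1: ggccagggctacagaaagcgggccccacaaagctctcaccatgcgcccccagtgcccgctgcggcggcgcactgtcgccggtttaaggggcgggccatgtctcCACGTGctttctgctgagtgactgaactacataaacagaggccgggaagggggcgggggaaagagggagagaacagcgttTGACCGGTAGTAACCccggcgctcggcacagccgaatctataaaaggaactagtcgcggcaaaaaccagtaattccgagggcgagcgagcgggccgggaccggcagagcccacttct
Nr1h3: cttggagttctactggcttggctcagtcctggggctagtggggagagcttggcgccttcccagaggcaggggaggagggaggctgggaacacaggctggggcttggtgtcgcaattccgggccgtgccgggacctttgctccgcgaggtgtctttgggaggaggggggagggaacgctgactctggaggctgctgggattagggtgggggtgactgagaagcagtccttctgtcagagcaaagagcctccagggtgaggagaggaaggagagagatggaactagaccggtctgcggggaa
The Nr1h3 promoter shown lies at chr2:91194986-91195285 on the minus strand. That is inside the annotated gene, whose 5′ end on this strand is at 91202834. Another examined promoter of Nr1h3, at chr2:91195067-91195366, overlaps it. The LXR motif was searched on both strands as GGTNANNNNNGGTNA, a pair of half-sites in the same direction, and its match in Abca1 lies on the opposite strand, from base -67 to -53 counted from the start site. This motif occurred in 0.718% of 32851 promoters of the same length and in 1 of the 10 promoters examined for these genes. The E-box, bases -147 to -142, occurred in 7.15% of all promoters. The SREBP motif TCACNCCAC occurred in 1.24% of all promoters and in 0 of these 10.

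Levels per length spanned a wide range. In IgG tumors Apoe stood first, at 579 ± 141 CPM per kilobase of exon (SD, n = 8), and Npc2 followed at 55.6 ± 10.9. Nr1h2 was at 21.5 ± 4.86, Osbp at 14.6 ± 1.52 and Soat1 at 12.2 ± 2.18 CPM per kilobase. Scarb1, Abca1 and Npc1 were lower, at 8.77 ± 1.87, 6.18 ± 1.59 and 4.68 ± 0.761 CPM per kilobase. The lowest were Abcg1 at 1.45 ± 0.462 and Nr1h3 at 1.37 ± 0.370 CPM per kilobase. The order depends on the length used: per kilobase of the longest transcript Scarb1 was at 24.1 in IgG tumors, above Osbp at 14.6 and Soat1 at 14.3, and Npc1 at 9.19 was above Abca1 at 6.24. Per kilobase of all exons, Apoe stood above Npc2, Npc2 above Nr1h2 and Nr1h2 above Osbp in 16 of 16 tumors, whereas Abcg1 stood above Nr1h3 in 8 of 16 and Scarb1 above Abca1 in 11 of 16, so those neighbors were not separated on that scale. The ubiquitous receptor Nr1h2 was the more abundant LXR in every tumor.

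The first comparison asked how responders differed from non-responders under the same antibody. Nr1h3, Abca1 and Abcg1 were higher in both responders than in any of the other 14 tumors. Nr1h3 was 4.14-fold, Abcg1 3.02-fold and Abca1 2.87-fold higher. The other 7 genes, among them Apoe, Osbp and Nr1h2, did not pass the test. Thus 3 of the 10 were past the adjusted p threshold of 0.05 upward, where 15.4% of all tested genes did, and 0 passed downward, where 4.34% of all genes did. All 3 also passed a log2 fold change of 1, a rule that called 13.2% of all genes. The median log2 fold change over the 10 genes was 0.32, against 0.02 over all tested genes. The share of all genes that were lower depends on the tumors used, at 11.2% without IgG replicate 1 and 14.7% without the 3 tumors of high mitochondrial share, where still 0 of the 10 genes passed downward.

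**Figure D1:**
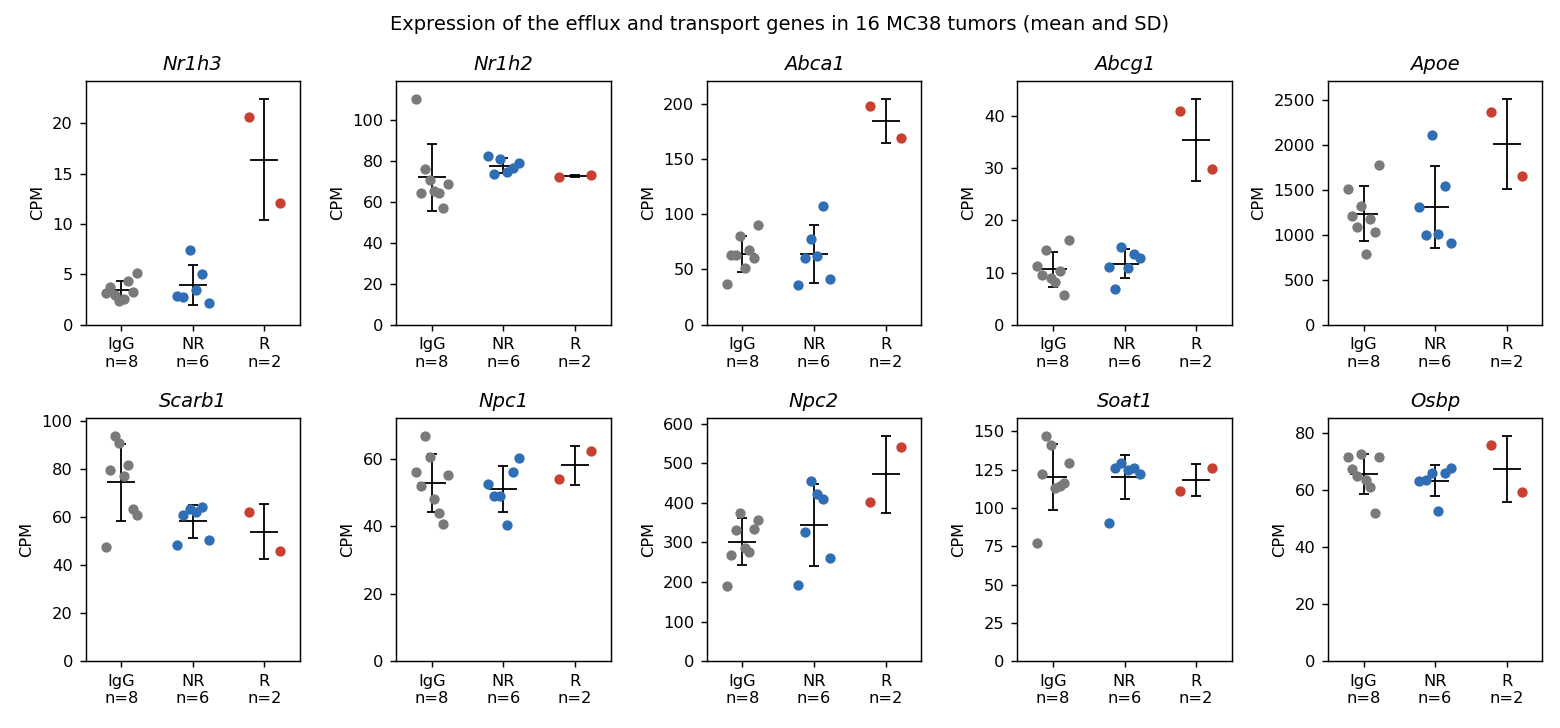
Expression of the 10 genes in CPM (linear axis from 0) in IgG (n = 8), NR (n = 6) and R (n = 2) tumors. Each point is a tumor, and bars show the mean and SD. Nr1h3, Abca1 and Abcg1 lie above all other tumors in both responders, while the other genes overlap with at least 1 of the other groups.

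The oxysterol receptor LXRα (Nr1h3, ENSMUSG00000002108, GRCm38 chr2:91184061-91202834) was at 20.6 CPM in R replicate 15 and 12.1 in R replicate 16. In NR tumors it was at 2.84, 2.73, 7.43, 3.44, 5.06 and 2.17 CPM for replicates 9 to 14, and in IgG tumors the lowest, median and highest values were 2.40, 3.24 and 5.18. Both responders were above every other tumor, and NR replicate 11 was the highest of the rest. The log2 fold change was 2.05 ± 0.36 (SE, adjusted p = 6.5e-04, edgeR's quasi-likelihood test). An exact two-sided permutation test over the tumors gave p = 0.0357, the smallest that 2 against 6 tumors allow.

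The second receptor, LXRβ (Nr1h2, ENSMUSG00000060601), was at 72.2 and 73.1 CPM in the responders and at 73.3 to 82.3 CPM in NR tumors (median 77.4). Both responders were below all NR tumors, which 13.2% of all tested genes also showed, but by little, and within the IgG range of 56.8 to 110. The log2 fold change of -0.10 ± 0.18 did not pass (adjusted p = 0.782, edgeR's quasi-likelihood test; 95% interval -0.47 to 0.28). The mix of both receptors shifted accordingly. Per kilobase of exon, Nr1h3 made up 27.6% and 18.1% of both LXRs in the responders, 6.26% ± 2.79 in NR tumors (SD, n = 6) and 6.21% ± 1.98 in IgG tumors (SD, n = 8), with both responders above all other tumors.

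Abca1 (ENSMUSG00000015243, chr4:53030787-53159895), which hands cholesterol to lipid-poor apolipoproteins, was at 198 and 169 CPM in R replicates 15 and 16. In NR replicates 9 to 14 it was at 35.5, 60.5, 77.6, 61.8, 107 and 41.3 CPM, and in IgG tumors at 36.6 to 90.4 with a median of 63.1. Neither control group reached the responders. The log2 fold change between R and NR was 1.52 ± 0.32 (adjusted p = 0.00237, edgeR's quasi-likelihood test). Abcg1 (ENSMUSG00000024030, chr17:31057675-31117988), which passes cholesterol to mature HDL, was at 41.0 and 29.9 CPM in the responders and at 11.1, 6.93, 14.9, 10.9, 13.6 and 12.8 CPM in NR replicates 9 to 14. IgG tumors ranged from 5.74 to 16.2 CPM with a median of 9.86, again with no overlap. Its log2 fold change was 1.59 ± 0.29 (adjusted p = 8.7e-04, edgeR's quasi-likelihood test). Having both responders above all NR tumors was common among genes, at 21.5% of those tested, and 3 of these 10 genes showed it.

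**Figure D2:**
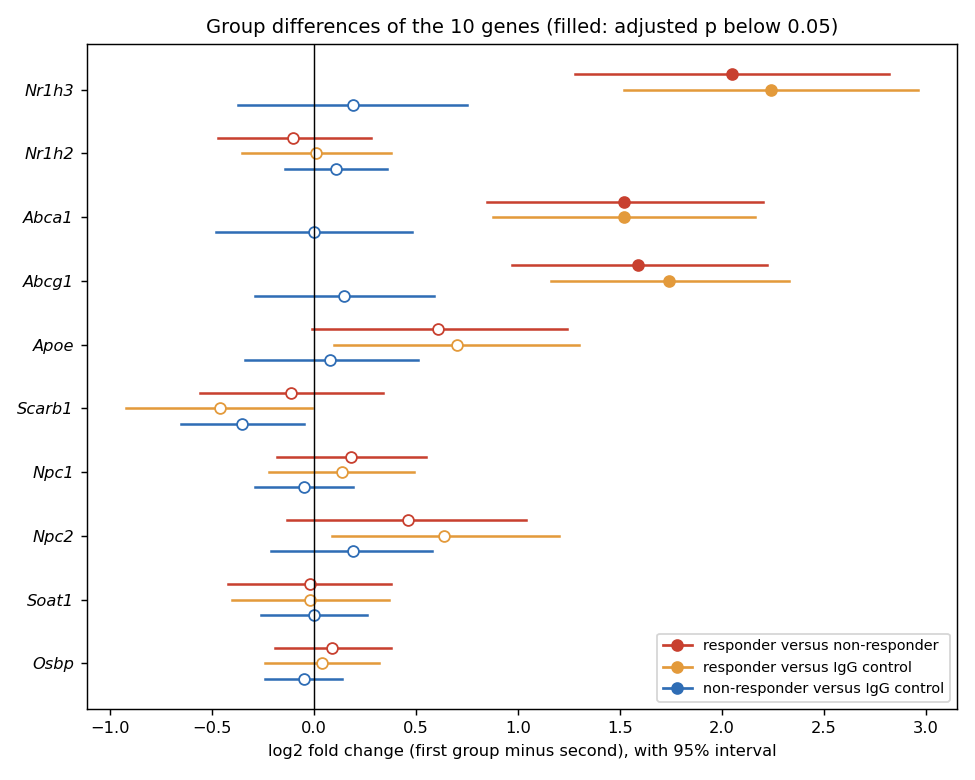
Log2 fold changes of the 10 genes (points) with 95% intervals (lines) in the 3 comparisons, with filled points for an adjusted p below 0.05. Filled points occur for Nr1h3, Abca1 and Abcg1 in both comparisons with responders, and for no gene between non-responders and IgG controls.

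These calls rest on responder replicate 15. Without it 0 of the 10 genes passed, with log2 fold changes of 1.55 for Nr1h3 (adjusted p = 0.0665), 1.28 for Abcg1 (0.062) and 1.34 for Abca1 (0.0748) by edgeR's quasi-likelihood test. The share of all tested genes that passed upward fell as well without that tumor, to 4.96%. Without the 3 tumors of high mitochondrial share, 3 genes passed, and the log2 fold changes were 1.75, 1.56 and 1.21 for Nr1h3, Abcg1 and Abca1. In bulk tissue a larger share of cells that make a transcript and more of it per cell cannot be told apart.

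Apoe (ENSMUSG00000002985), the lipid carrier secreted by macrophages and other cells, had the highest level of the list and overlapped between groups. It was at 2365 and 1653 CPM in R replicates 15 and 16 and at 915 to 2110 CPM in NR tumors (median 1156), with NR replicate 11 above R replicate 16. The log2 fold change of 0.61 ± 0.30 did not pass (adjusted p = 0.17, edgeR's quasi-likelihood test; 95% interval -0.01 to 1.24). Without NR replicate 11 it passed, at 0.80 (adjusted p = 0.0423), and without responder replicate 15 it was at 0.26 (adjusted p = 0.838), by the same test. Apoe therefore depended on the choice of tumors.

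The remaining 5 genes did not pass between R and NR. Npc2, which takes cholesterol from lysosomal lipid and hands it to NPC1, was at 403 and 540 CPM in R and 192 to 455 CPM in NR tumors (log2 fold change 0.46 ± 0.28). Npc1, the membrane protein of lysosomal exit, was at 54.1 and 62.2 CPM against 40.3 to 60.1 (0.18 ± 0.17). Its exons share 511 bases with Rmc1 on the opposite strand, 4.52% of their length, and the library was strand-specific. Soat1, which esterifies cholesterol for storage, was at 111 and 126 CPM against 90.5 to 129 (-0.02 ± 0.19). Scarb1, which takes up HDL cholesterol and also returns it, was at 62.3 and 45.9 CPM against 48.4 to 64.4 (-0.11 ± 0.21). Osbp, which moves cholesterol from the endoplasmic reticulum to the Golgi, was at 75.7 and 59.3 CPM against 52.9 to 67.8 (0.09 ± 0.13). Their ranges overlapped in each case, and the 95% intervals reached from -0.42 to 0.38 for Soat1 and from -0.19 to 0.38 for Osbp, the narrowest of the list, and up to 1.04 for Npc2. Without the 3 tumors of high mitochondrial share the log2 fold changes were 0.17 for Npc2 and -0.27 for Scarb1, neither passing. Osbp belongs to genes the study itself picked from these tumors.

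The second comparison asked whether these genes differed between treated tumors without a CD8 T cell influx, the non-responders, and IgG controls. NR tumors were selected by CD8 staining after treatment and IgG tumors were not. The comparison therefore cannot isolate the effect of the antibody. 0 of the 10 genes passed in either direction, as 0% of all 18251 tested genes did upward and 0% downward by edgeR's quasi-likelihood test, with 694 genes at an unadjusted p below 0.05. DESeq2 passed 8 genes, all higher, and 0 of the 10. Without IgG replicate 1, 7 genes passed edgeR's test and 3219 had an unadjusted p below 0.05, and without the 3 tumors of high mitochondrial share these were 1 and 1520, again with 0 of the 10 among those that passed. The log2 fold changes were -0.35 to 0.19, with a median of 0.04. The lowest was that of the HDL receptor Scarb1, at 74.6 ± 15.9 CPM in IgG (SD, n = 8) and 58.3 ± 6.94 in NR tumors (SD, n = 6), a change of -0.35 ± 0.14 (adjusted p = 0.987, edgeR's quasi-likelihood test). Its IgG tumors ranged from 47.7 to 94.0 CPM and its NR tumors from 48.4 to 64.4, so the groups overlapped. Nr1h3 differed by 0.19 ± 0.27, Abca1 by 0.00 ± 0.23 and Abcg1 by 0.15 ± 0.21 on the log2 scale, with 95% intervals of -0.37 to 0.75, -0.48 to 0.48 and -0.29 to 0.59. Without those 3 tumors Nr1h3 differed by 0.42 (adjusted p = 0.698, edgeR's quasi-likelihood test). These intervals leave room for differences as large as their ends.

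The third comparison set responders against IgG controls, and shares its responders with the first. Here also 3 of 10 genes passed upward, where 17.7% of all genes did, and 0 downward, where 5.17% did. Nr1h3 was 2.24 ± 0.34 higher on the log2 scale (adjusted p = 1.1e-04), Abcg1 1.74 ± 0.28 (1.6e-04) and Abca1 1.52 ± 0.30 (0.00126), all by edgeR's quasi-likelihood test. Without responder replicate 15, Abca1 no longer passed, at 1.33 (adjusted p = 0.0546). Both responders were above every IgG tumor for these 3 genes and for Npc2, 4 of 10 genes, and 19.3% of all tested genes showed that.

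Npc2 was at 191 to 375 CPM in IgG tumors with a median of 308, below the 403 and 540 CPM of R replicates 15 and 16. Its log2 fold change of 0.64 ± 0.26 did not pass (adjusted p = 0.0925, edgeR's quasi-likelihood test). Apoe did not pass either, at 0.70 ± 0.28 (adjusted p = 0.0897), but did without IgG replicate 8, at 0.79 (adjusted p = 0.0489), by the same test. Scarb1 went the other way without passing, at -0.46 ± 0.21 (adjusted p = 0.137, edgeR's quasi-likelihood test). Without the 3 tumors of high mitochondrial share Npc2 and Scarb1 passed, Npc2 at 0.51 (adjusted p = 0.0126) and Scarb1 at -0.59 (adjusted p = 0.00742), and Scarb1 passed as well without IgG replicate 1 alone (-0.59, adjusted p = 0.0138). IgG replicate 1 had the lowest Scarb1, Npc2, Soat1 and Abca1 of the IgG tumors, at 47.7, 191, 76.9 and 36.6 CPM, and NR replicate 9 the lowest of the NR tumors for the same genes, at 48.4, 192, 90.5 and 35.5 CPM. In both tumors a low level of these genes went with the high mitochondrial share, whose part in the results was tested only by leaving the tumors out.

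The rest of the LXR pathway was read from 5 gene lists. Of 10 other LXR target genes, 8 were tested (Abcg5 and Abcg8 were too low), and 5 of these were higher in R than NR and 0 lower, with a median log2 fold change of 1.54, beside the 15.4% of all tested genes that were higher. Lpl, which frees fatty acids from lipoproteins, was at 466 and 132 CPM in R replicates 15 and 16 against 8.48 to 25.0 in NR tumors (log2 fold change 4.28 ± 0.61, adjusted p = 9.1e-05, edgeR's quasi-likelihood test). Mylip, the ubiquitin ligase that removes the LDL receptor, was at 63.0 and 32.8 CPM against 13.7 to 21.1. Pltp, which transfers phospholipid between lipoproteins, was at 96.2 and 45.7 CPM against 12.6 to 37.4, and Apoc1, a small apolipoprotein, at 10.2 and 2.28 CPM against 0.0911 to 1.83. Among all tested genes, 21.5% had both responders above all NR tumors. These 4 genes, named for the smallest p of their list, did so as well. Their log2 fold changes were 1.52 ± 0.22 for Mylip, 1.75 ± 0.40 for Pltp and 3.41 ± 0.84 for Apoc1.

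Not every LXR target followed. Srebf1, the driver of fatty acid synthesis, differed by -0.04 ± 0.19 on the log2 scale, Lpcat3, which remodels membrane phospholipid, by -0.25 ± 0.15, and Mertk, a receptor for dying cells, by 0.28 ± 0.18, none of them passing. These 3 genes and Smpdl3a, the fifth that rose, were named after their values were seen. Without responder replicate 15 only Lpl (3.03, adjusted p = 0.0153) and Mylip (0.90, adjusted p = 0.0381) of the list still passed edgeR's quasi-likelihood test.

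**Figure D3:**
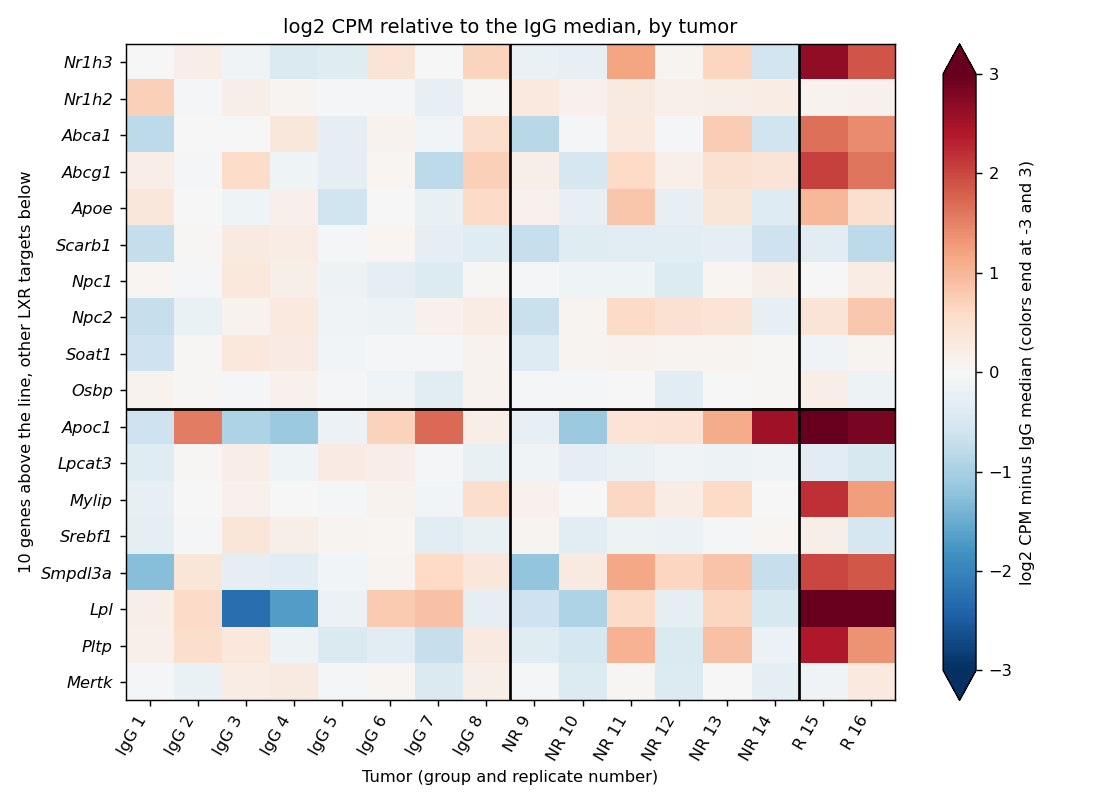
Log2 CPM of the 10 genes (above the line) and of 8 other LXR target genes (below) in each of the 16 tumors, relative to the median of the IgG tumors, with colors ending at -3 and 3. R 15 and R 16 are red for Nr1h3, Abca1, Abcg1, Apoc1, Mylip, Smpdl3a, Lpl and Pltp, and pale for Nr1h2, Npc1, Soat1, Osbp, Srebf1 and Mertk.

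Of the 6 LXR partners, the RXR receptors and their cofactors, 2 were higher and 0 lower, beside the same 15.4% of all genes. Rxra was at 46.5 and 31.3 CPM in R replicates 15 and 16 against 18.9 to 27.6 in NR tumors (log2 fold change 0.83 ± 0.19). Rxrg, at 1.42 and 0.309 CPM against 0 to 0.0506, was near the detection limit in NR. In IgG tumors Rxrg reached 0.778 CPM, above R replicate 16. Against IgG controls Rxrg did not pass (adjusted p = 0.0933, edgeR's quasi-likelihood test). Of 6 tested genes of other efflux and lipoprotein functions, 1 was higher and 0 lower, a share near that of all genes. It was the fatty acid and lipoprotein receptor Cd36, at 275 and 89.8 CPM against 4.03 to 26.8 (3.47 ± 0.62, adjusted p = 7.1e-04, edgeR's quasi-likelihood test), while Lrp1, an APOE receptor, was at 306 and 202 CPM against 164 to 265 (0.35 ± 0.22). Without responder replicate 15 Rxra was at 0.45 (adjusted p = 0.362), Rxrg had an adjusted p of 0.31 and Cd36 was at 2.38 (adjusted p = 0.0841), none of them passing edgeR's quasi-likelihood test.

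Of 19 OSBP relatives and other sterol transfer genes, 3 were higher and 0 lower, a share near the 15.4% of all genes. Gramd1c was at 2.69 and 1.55 CPM in R replicates 15 and 16 against 0.169 to 0.549 in NR tumors, Gramd1b at 28.9 and 32.5 against 15.6 to 21.6 and Stard5 at 23.8 and 34.5 against 16.8 to 23.1. The first 2 belong to the GRAMD1 family that carries cholesterol from the plasma membrane to the endoplasmic reticulum. R and NR tumors did not overlap for any of these 3 genes, which were named for their small p. Both responders were above all NR tumors in 21.5% of all tested genes. Stard5 in R replicate 15, at 23.8 CPM, was within the IgG range of 17.8 to 24.2 CPM. Of 9 genes of lysosomal release and ester turnover, 1 was higher and 1 lower, beside 15.4% and 4.34% of all genes. Gpr155, a lysosomal cholesterol sensor, was at 14.8 and 8.72 CPM against 4.50 to 7.52 (0.98 ± 0.24), and Soat2, the second ester-forming enzyme, at 1.68 and 2.67 CPM against 4.52 to 8.06 (-1.43 ± 0.48, adjusted p = 0.0441, edgeR's quasi-likelihood test). Without responder replicate 15, Gramd1c and Stard5 still passed. Gramd1b did not, with a log2 fold change that stayed at 0.77 ± 0.23 (0.76 ± 0.17 with that tumor, adjusted p = 0.0638 without it, edgeR's quasi-likelihood test), and Gpr155 fell to 0.48 (adjusted p = 0.486). Without responder replicate 16, 1 gene of the sterol transfer list passed. Soat2 lost its call when any of NR replicates 10, 12 and 14 or either responder was left out. Between NR and IgG tumors 0 genes of the 5 lists passed edgeR's quasi-likelihood test. Against IgG controls, 5 of the 8 tested LXR targets were higher in responders, and so were 1 of 6 LXR partners, 1 of 6 other efflux genes, 4 of 19 sterol transfer genes and 1 of 9 lysosomal and ester genes, with 0 lower in any list. The share of all genes higher in that comparison was 17.7%, near the shares of the lists other than the LXR targets. Without the 3 tumors of high mitochondrial share the counts higher in R than NR were 5 LXR targets, 3 LXR partners, 2 other efflux genes, 4 sterol transfer genes and 1 lysosomal or ester gene, with 1 sterol transfer gene and 3 lysosomal or ester genes lower, where 17.8% of all genes were higher and 14.7% lower. In the same fit against IgG controls, 7 sterol transfer genes were higher and 2 lysosomal or ester genes lower, where 3921 and 3488 of 17822 genes were.

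Markers of several cell types were higher in the responders, beside 15.4% of all tested genes that were higher in R than NR. All 5 adipocyte markers were higher in R than NR, and their summed level was 1180 and 213 CPM in R replicates 15 and 16 against 19.3 to 50.2 in NR and 16.0 to 79.6 in IgG tumors. Lpl and Cd36 are also abundant in fat cells. All 6 B cell markers passed, summed at 1070 and 272 CPM in the responders against 1.52 to 5.83 in NR tumors, as did all 6 T cell markers, at 185 and 174 CPM against 9.65 to 27.5. Of 5 endothelial markers 3 passed, at 341 and 183 CPM summed against 38.4 to 149. Of 13 macrophage and monocyte markers 2 passed, Mrc1 and Ly6c2, a share near that of all genes. The summed levels of the 13 were 1837 and 1774 CPM, inside the NR range of 1300 to 1874 but above the IgG range of 1141 to 1618. Against IgG controls 4 of the 13 passed, where 17.7% of all genes were higher. Mrc1 was at 206 and 126 CPM in R replicates 15 and 16 against 25.8 to 83.3 in NR tumors, while C1qa, C1qb and C1qc, which make up much of the sum, overlapped between R and NR. Among the other lists, 1 of 6 fibroblast, 1 of 4 tested neutrophil and 4 of 5 tested colon epithelium markers were higher in R than NR. The fibroblast share was near that of all genes. For skeletal muscle 0 of 5 and for keratinocytes 0 of 5 markers passed. Of 6 proliferation genes 1 was lower, where 4.34% of all genes were. The part of these cells in the rise of Nr1h3, Abca1 and Abcg1 was not tested.

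**Figure D4:**
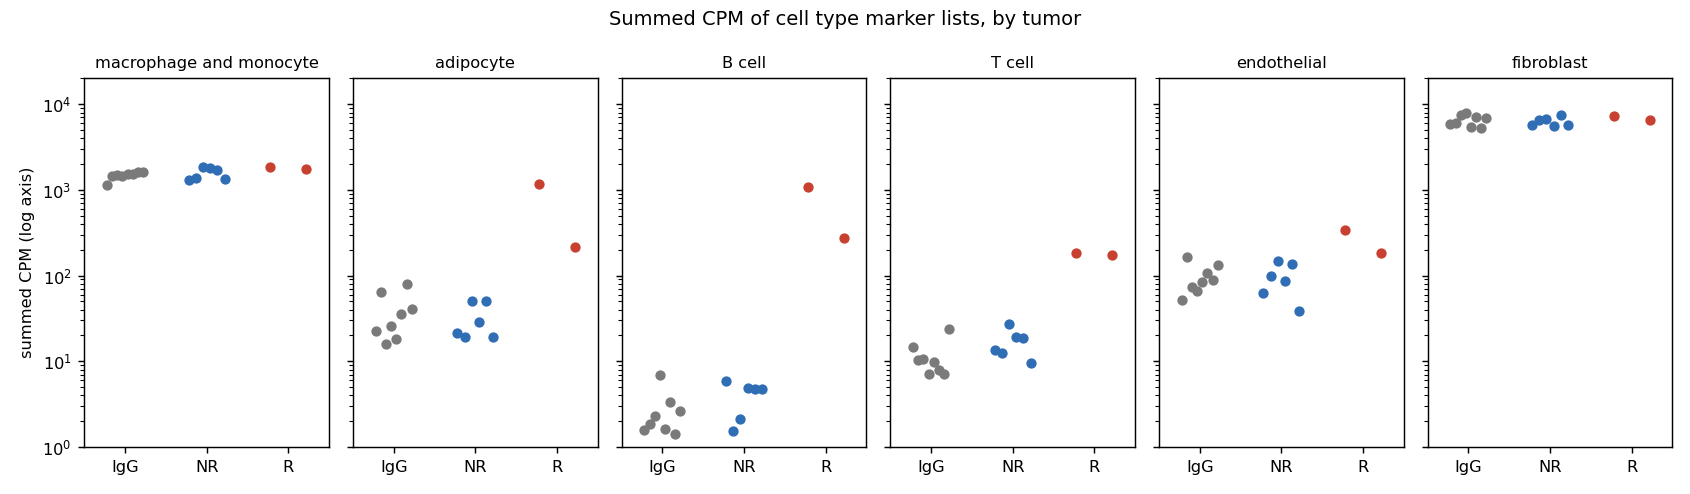
Summed CPM (log axis) of the marker genes of 6 cell types in each IgG, NR and R tumor. Adipocyte, B cell, T cell and endothelial sums are above all other tumors in both responders, whereas macrophage and monocyte sums of 1774 and 1837 CPM fall within the NR range and fibroblast sums overlap with both other groups.

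Whether Nr1h3 varied with its targets outside the responders was asked in the 14 IgG and NR tumors, a question chosen after the values were seen and 1 of 6 relations computed. On the log2 scale Nr1h3 correlated with Apoe (Pearson r = 0.781, permutation p = 8.7e-04, adjusted p = 0.00408; Spearman rho = 0.657, permutation p = 0.0126, adjusted p = 0.019) and with Abca1 (r = 0.602, permutation p = 0.0226, adjusted p = 0.0271; rho = 0.582, permutation p = 0.0319, adjusted p = 0.0383). With Abcg1 it was r = 0.476 (permutation p = 0.083) and rho = 0.464 (permutation p = 0.099), neither passing. Leaving out IgG replicate 8 and NR replicate 11, the tumors farthest from the median of Nr1h3, gave r = 0.522 for Apoe, 0.538 for Abca1 and 0.179 for Abcg1. Within groups r was 0.573 in IgG and 0.920 in NR tumors for Apoe, 0.358 and 0.756 for Abca1, and 0.446 and 0.551 for Abcg1.

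Nr1h3 was related as closely to cell type markers in these 14 tumors. With the mean log2 CPM of endothelial markers r was 0.761 (permutation p = 0.00136, adjusted p = 0.00408; rho = 0.767, permutation p = 0.0018, adjusted p = 0.0054), and with macrophage and monocyte markers 0.692 (permutation p = 0.0061, adjusted p = 0.0122; rho = 0.789, permutation p = 0.00136, adjusted p = 0.0054). With adipocyte markers r was 0.622 (permutation p = 0.0176, adjusted p = 0.0264; rho = 0.692, permutation p = 0.00796, adjusted p = 0.0159). Without the same 2 tumors r was 0.735, 0.633 and 0.615. Within groups r was 0.667 in IgG and 0.868 in NR tumors for endothelial markers. It was 0.365 and 0.891 for macrophage and monocyte markers, and 0.448 and 0.909 for adipocyte markers.

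**Figure D5:**
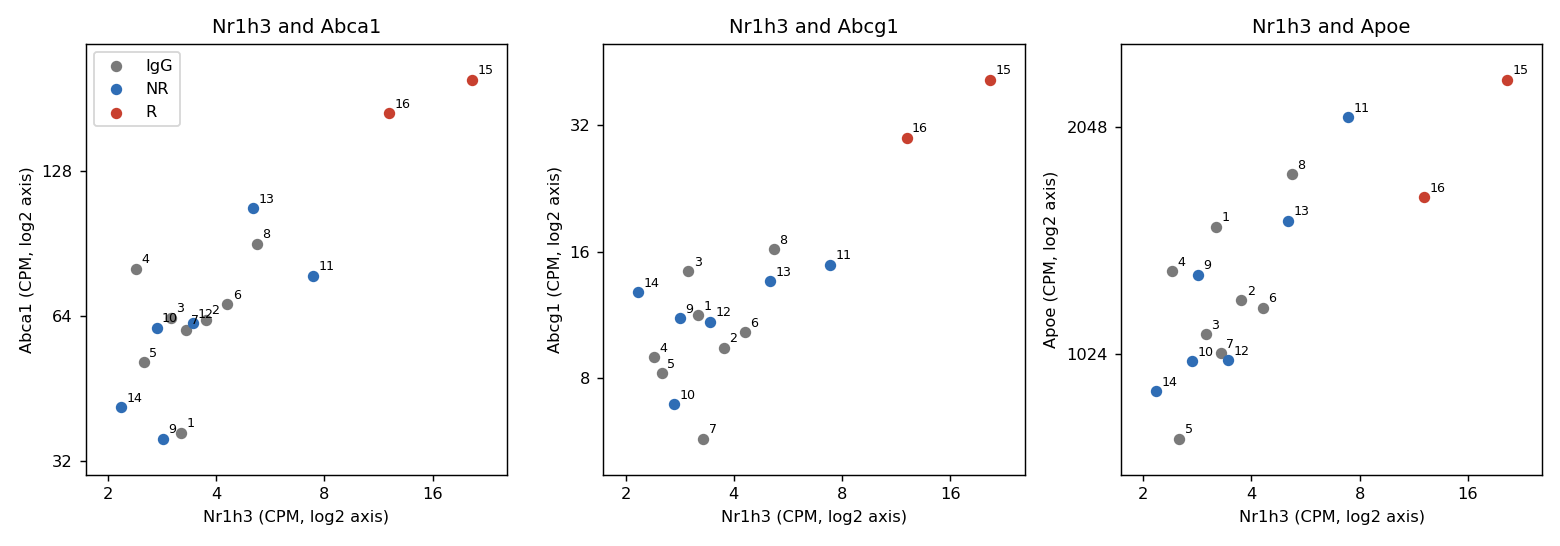
Nr1h3 against Abca1, Abcg1 and Apoe in CPM (log2 axes), with a point and replicate number for each of the 16 tumors. R 15 and R 16 lie apart at the upper right for Abca1 and Abcg1, while for Apoe NR 11 lies above R 16.

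Across the same 14 tumors, the genes whose log2 CPM ranked tumors most like each of the 10 genes were found among tested genes that averaged 100 or more counts. Both genes of a pair were read from the same 14 libraries, which differ in cell composition, and the values are descriptions. With the 2 responders added, 1 of the 10 genes kept both of its named genes, and Abca1, Npc1, Npc2 and Osbp kept 0. For Nr1h3 they were Ccn5 (Spearman rho = 0.921, Pearson r = 0.861) and Efemp1 (rho = 0.916, r = 0.891), and for Nr1h2 Pgs1 (rho = 0.965, r = 0.880) and Ctsa (rho = 0.965, r = 0.974). Abca1 was most like Acpp (rho = 0.925, r = 0.898) and Nab1 (rho = 0.921, r = 0.901), Abcg1 like Hexa (rho = 0.890, r = 0.866) and Tapbp (rho = 0.881, r = 0.858), and Apoe like Itgb5 (rho = 0.877, r = 0.735) and Hexa (rho = 0.837, r = 0.838). Scarb1 was most like Dhcr7 (rho = 0.960, r = 0.950) and Helb (rho = 0.943, r = 0.911). Npc1 was closest to R3hdm1 (rho = 0.982, r = 0.912) and Xpo6 (rho = 0.965, r = 0.962), and Npc2 to Gla (rho = 0.956, r = 0.950) and Ctsh (rho = 0.956, r = 0.937). Soat1 was closest to Layn (rho = 0.921, r = 0.848) and Cpe (rho = 0.916, r = 0.853), and Osbp to Senp2 (rho = 0.890, r = 0.800) and Fip1l1 (rho = 0.886, r = 0.865).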

How the data were processed

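Bulk RNA-seq of 16 MC38 tumors was analysed, 8 from IgG and 8 from aPD-1 treated mice, each tumor from another mouse. The authors aligned the reads with STAR 2.6 to GRCm38 and deposited expected counts per gene estimated by RSEM 1.3.0 (tools and versions per the labels). Expected counts share reads between genes that they fit equally, and 7.84% of the values were not whole. They were rounded to whole counts. The 92 table entries that name no gene held at most 185 counts per tumor and were left out. Symbols, exons and positions came from GENCODE mouse release 21 and matched 53360 identifiers.

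Counts were scaled by TMM and tested with edgeR 4.0.16 in R 4.3.3 (quasi-likelihood test, robust, edgeR's filter on low counts, 1 fit of all 16 tumors), with Benjamini-Hochberg adjustment over 18251 genes. A gene passed at an adjusted p below 0.05. CPM used the TMM library sizes. Permutation tests over tumors were exact and two-sided, and those of correlations used 100000 permutations. No tumor was a copy of another, since chi-square divided by its degrees of freedom was at least 16.1 in all 120 pairs. Counts were simulated for all 16 tumors with 200 genes changed in the responders. Responders against non-responders then recovered 52% of the 2-fold and 90% of the 4-fold changes, and 5.33% of the passing genes were unchanged. In the real comparison 3599 genes passed, many more than were changed here, so these shares need not hold for it.

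The 10 genes, the 5 pathway lists (52 genes), the 11 marker lists and the tests were chosen with earlier results of these data known. All 10 genes are named, and from each pathway list up to 4 passing genes of smallest p between responders and non-responders, or the 2 of smallest p where fewer than 2 passed. For each of the 10 genes the 2 genes of highest Spearman rho are named. The alternatives were DESeq2 1.42.0, median-of-ratios size factors, omission of the filter, a stricter filter (10 counts or more in 8 tumors or more), fits restricted to the groups of a comparison, and omission of 1 tumor at a time. After the data were seen, a fit of the 13 tumors with a mitochondrial share of at most 5% and the pathway lists under every alternative were added. Where 1 responder remained, its spread was taken as that of the other groups.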

Additional observations from a re-analysis of the deposited data

Results flagged for a closer look

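In 3 of 20 groups of 6 or 8 tumors, the value of 1 tumor for 1 of the 10 genes lay far from the rest, where chance flags about 1 in 20 groups. Nr1h2 was at 110 CPM in IgG replicate 1, against 56.8 to 75.7 in the other IgG tumors. Soat1 was at 90.5 CPM in NR replicate 9, against 122 to 129 in the other NR tumors. Osbp was at 52.9 CPM in NR replicate 12, against 63.2 to 67.8 in the other NR tumors. The first 2 tumors are also those of the highest mitochondrial share, at 7.60% and 6.00% of counts, whereas NR replicate 12 was at 3.12%. The part of that share in these values was not tested.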

How the results depend on the processing

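Nr1h3, Abca1 and Abcg1 kept their direction and their side of the threshold between responders and non-responders in the 6 alternatives that did not leave out single tumors. Of 500 fold changes under all alternatives, 472 kept both, 18 changed sign, 4 lost and 6 gained an adjusted p below 0.05. Leaving out each tumor in turn gave 0 to 4 of the 10 genes higher in responders than in non-responders, and 2 to 4 higher and 0 to 1 lower than in IgG controls. With a mitochondrial share of at most 5% 1 gene, Scarb1, was lower in responders than in IgG controls. Without the filter on low counts, the log2 fold changes between responders and IgG controls turned to -0.06 for Nr1h2 and -0.03 for Osbp.

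When single tumors were left out, these values changed sign: between responders and non-responders Scarb1 (-0.42 to 0.04) and Osbp (-0.17 to 0.20), between non-responders and IgG controls Apoe (-0.10 to 0.18), Nr1h3 (-0.09 to 0.32) and Npc1 (-0.10 to 0.01), and between responders and IgG controls Nr1h2 (-0.05 to 0.07), Soat1 (-0.16 to 0.04), Npc1 (-0.02 to 0.21) and Osbp (-0.22 to 0.15). Between non-responders and IgG controls Abca1 (-0.21 to 0.12) and Soat1 (-0.06 to 0.07), both at 0.00 with all tumors, also lay on both sides of 0. None of these passed the test, and the cause was not tested. With only the 2 groups compared, Npc2 passed against IgG controls. With the longest transcript in place of all exons, 5 of the levels per kilobase (Apoe, Nr1h2, Npc1, Npc2 and Scarb1) rose by more than 1 SD. No paired analysis was possible because the tumors of the groups share no replicate numbers. With 2 responders, changes of 2-fold can be missed, and p-values measure the spread between tumors of 1 experiment.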
